A study of Mus musculus with 15 samples.

Results

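The integrin genes described here encode 6 alpha chains (Itgam, Itgax, Itgal, Itga4, Itga6 and Itgav) and 4 beta chains (Itgb1, Itgb2, Itgb3 and Itgb8) that are found on leukocytes. They were chosen by gene symbol, and all 10 are among the 53465 genes of the deposited count matrix. The measurements were made by RNA sequencing of mouse bone marrow-derived macrophages (BMDMs), which were grown from marrow of adult mice for 7 days with M-CSF at 20 ng/ml, the growth factor that drives macrophage differentiation. The cells were then left without further cytokine (control), or were kept for 24 h with IL-4 at 10 ng/ml, with this IL-4 and IL-6 at 40 ng/ml (IL-4/IL-6), with IL-13 at 40 ng/ml, or with this IL-13 and IL-6 at 40 ng/ml (IL-13/IL-6). Each of the 5 groups had 3 replicates, which made 15 libraries. A group with IL-6 alone was not analysed here, so an effect of IL-6 is always an effect on top of IL-4 or IL-13, and the doses of IL-4 and IL-13 differed.

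Integrins are heterodimers of an alpha and a beta chain that bind matrix proteins or counter-receptors on other cells and link them to the actin cytoskeleton. The beta2 chain (CD18, Itgb2) is restricted to leukocytes and pairs with alphaL (CD11a, Itgal) to form LFA-1, with alphaM (CD11b, Itgam) to form the complement receptor Mac-1, and with alphaX (CD11c, Itgax) to form p150,95, so that these alpha chains share a common beta partner. The beta1 chain (Itgb1) pairs with many alpha chains, among them alpha4 (Itga4), whose ligands include VCAM-1 and fibronectin, and alpha6 (Itga6), a laminin receptor, while alphaV (Itgav) joins beta3 (Itgb3), beta8 (Itgb8) and other beta chains and binds proteins with an RGD motif, including latent TGF-beta.

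Itgam (ENSMUSG00000030786) and Itgax (ENSMUSG00000030789) are neighbors on the plus strand, at chr7:128062640-128118491 and chr7:128129547-128150657 in GRCm38, the build named in the submitters' processing notes, with Itgal at chr7:127296260-127335138 on the same chromosome. Their upstream sequences are shown because these adjacent, related genes had different levels after co-addition of IL-6, described further on. Each is the 250 bases before the start in RefSeq (GRCm38.p6), chr7:128062390-128062639 for Itgam and chr7:128129300-128129549 for Itgax. The capitals mark the letters GAGGAA on either strand, a core that the myeloid ETS factor PU.1 can bind, and TTCNNNNGAA, a spacing that STAT6, the transcription factor of IL-4 and IL-13 signaling, can bind. Searches also covered TTCNNNGAA, the spacing typical of other STAT factors, which neither sequence holds, and none of the matches overlapped each other.
Itgam: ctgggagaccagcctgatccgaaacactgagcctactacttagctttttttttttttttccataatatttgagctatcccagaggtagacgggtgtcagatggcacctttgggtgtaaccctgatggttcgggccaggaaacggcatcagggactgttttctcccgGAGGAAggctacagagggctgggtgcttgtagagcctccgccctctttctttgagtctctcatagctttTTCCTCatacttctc
Itgax: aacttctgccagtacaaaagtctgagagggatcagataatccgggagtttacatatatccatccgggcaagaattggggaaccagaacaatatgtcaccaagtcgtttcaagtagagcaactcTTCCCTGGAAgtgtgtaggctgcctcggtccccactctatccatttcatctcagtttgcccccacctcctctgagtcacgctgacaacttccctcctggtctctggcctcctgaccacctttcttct
The Itgam sequence holds 2 matches to GAGGAA, beginning 84 and 15 bases before the start, and the Itgax sequence holds 1 match to TTCNNNNGAA, beginning 127 bases before the start. Among 32851 RefSeq upstream sequences of this length, 23.3% hold GAGGAA, 5.85% hold TTCNNNNGAA and 7.02% hold TTCNNNGAA. Of the 10 integrin genes, 6 were matched to such a sequence. GAGGAA is not particular to Itgam among them, as Itgav holds 2 matches and Itgb1 holds 1. Itga4 and Itgb8 hold no match to any of the patterns.

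Library totals ran from 17001352 to 18918686 counts, and 9 of the integrin genes were well covered in every library. Itgb8 was the exception, with counts of 2, 3 and 7 in the control libraries. The biological coefficient of variation was 4.49% in control, 4.54% in IL-4, 14.9% in IL-4/IL-6, 10.9% in IL-13 and 7.39% in IL-13/IL-6. All 8 macrophage markers examined, including Csf1r, Adgre1 and Cd68, were present in every group, and their summed level lay between 10748 and 20944 normalized CPM (counts per library size, scaled with TMM factors, the unit of every level below unless FPKM is named). Most of that sum was Lyz2 in each group. Of these markers 1 was higher and 6 lower with IL-4 than in control, where 32.1% and 35.9% of all tested genes were. With IL-13, 3 were higher and 4 lower, beside 29% and 31.1% of all tested genes. The efferocytosis receptor Mertk fell most, from 143 to 8.27 with IL-4 (adjusted p = 6.44e-13) and to 14.5 with IL-13 (adjusted p = 7.42e-12), and Aif1 (3.35-fold) and Cd14 (2.88-fold) also fell beyond 2-fold with IL-4. The control libraries also held markers of other blood cells. Granulocyte markers summed to 485 to 574 normalized CPM in control and to 10.9 to 26.1 in the cytokine-treated groups, where most of the sum was Mmp8 and Ly6g and Retnlg were at 0. Megakaryocyte and platelet markers summed to 322 to 362 in control, 77.2 to 81.0 with IL-4, 80.2 to 95.4 with IL-13, 181 to 319 in IL-4/IL-6 and 354 to 426 in IL-13/IL-6, and most of the sum in the treated groups was Pf4. Ppbp, a platelet chemokine of this list, was at 166 normalized CPM in control and at 1.59 to 4.16 in the other groups. B and T cell markers summed to 10.4 to 10.9 in control and mast cell, basophil and eosinophil markers to 39.5 to 46.3, against at most 1.55 and 5.73 with cytokine. Dendritic cell markers summed to 114 to 129 in control, 28.7 to 31.4 with IL-4, 30.1 to 35.3 with IL-13, 13.0 to 15.7 in IL-4/IL-6 and 6.18 to 7.34 in IL-13/IL-6. Of 7 tested dendritic cell markers, 6 were lower beyond 2-fold with IL-4 (16.1% of all tested genes) and 7 with IL-13 (12.6%). Most of the control sum was Cd24a, and Flt3 had counts of 149, 96 and 108 in control, 0, 0 and 0 with IL-4, 4, 0 and 0 with IL-13, 0, 0 and 0 in IL-4/IL-6 and 2, 1 and 0 in IL-13/IL-6. Stromal and endothelial markers, mostly Kdr with cytokine, summed to 28.6 to 37.7 in control and to 7.20 to 12.3 with IL-4 up to 40.1 to 41.2 in IL-13/IL-6. In bulk RNA, fewer cells of a type and less RNA per cell cannot be told apart.

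**Figure D1:**
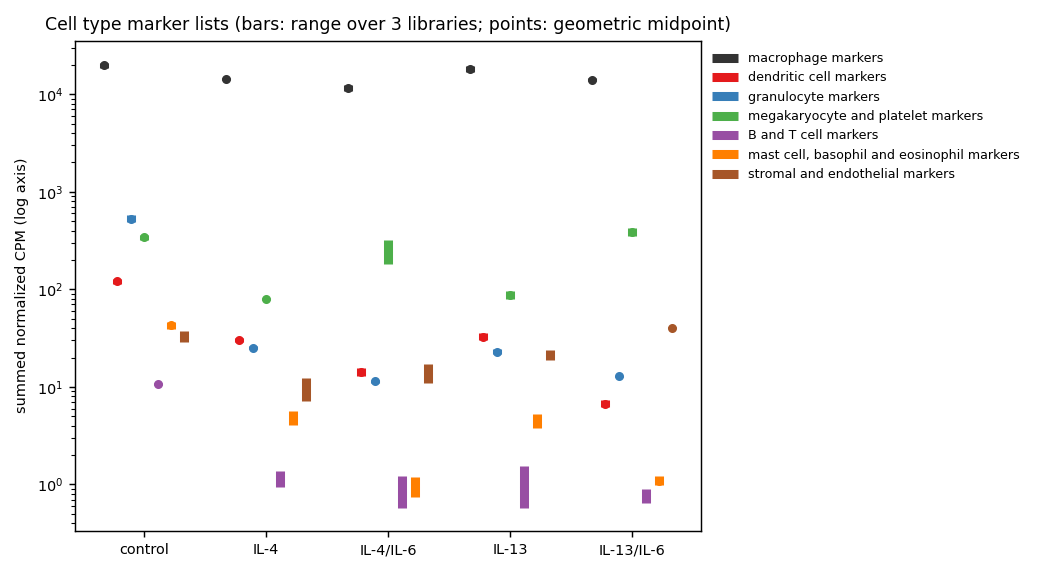
Summed normalized CPM (log axis) of 7 lists of cell type markers in the 5 groups, with a bar for the range over the 3 libraries and a point at its geometric midpoint. Macrophage markers are high in every group, while dendritic cell, granulocyte, mast cell, basophil and eosinophil, and B and T cell markers are highest in the control libraries.

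Per gene length, the beta chains Itgb2 and Itgb1 were the most abundant of the integrin transcripts. In control BMDMs, Itgb2 stood at 429 ± 3.73 FPKM (SD, n = 3) and Itgb1 at 175 ± 0.439, and the alpha chains followed in the order Itgax (62.9 ± 3.70), Itga6 (46.8 ± 2.43), Itgam (40.1 ± 1.24), Itgal (29.4 ± 2.21), Itgav (16.2 ± 0.979) and Itga4 (15.5 ± 0.845). Itgb3 was at 25.9 ± 2.04 FPKM, between Itgal and Itgav. The libraries of Itgal and Itgb3 and those of Itgav and Itga4 overlapped, while the other neighbors in this order did not, and Itgb8 was near the limit of detection, at 0.0209 ± 0.0144 FPKM.

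**Figure D2:**
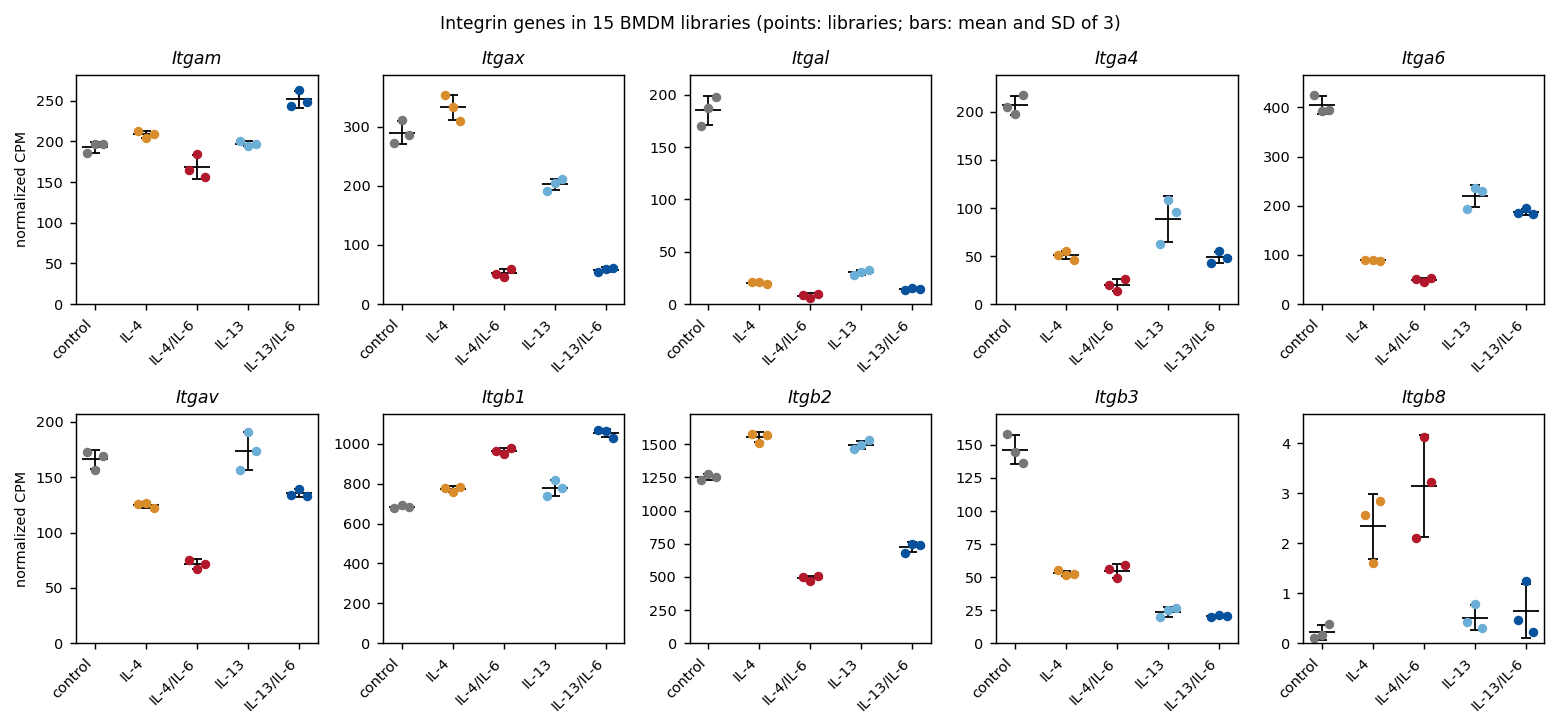
Normalized CPM of the 10 integrin genes in the 15 libraries, with a point for each library and lines for the mean and SD of the 3 replicates. Itgb2 and Itgax are lowest in the IL-6 co-treated groups, Itgb1 is highest there, and Itgal, Itga4, Itga6 and Itgb3 are highest in control.

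The effect of IL-4 or IL-13 alone was examined against control. With IL-4, the alpha chains Itgal, Itga4 and Itga6 fell together with Itgb3 and, less, Itgav, while Itgb2, Itgb1 and Itgax rose slightly and Itgb8 rose from a very low level. By the edgeR quasi-likelihood test with an adjusted p under 0.05, 4 of the 10 genes were higher and 5 lower, where 32.1% and 35.9% of the 13938 genes tested were called. Beyond a 2-fold change the counts were 1 and 4, against 10% and 16.1% of all genes. With IL-13, 2 were higher (background 29%) and 5 lower (31.1%), with 0 (background 7.74%) and 3 (12.6%) beyond 2-fold. The median log2 difference of the 10 genes was -0.15 with IL-4 and -0.24 with IL-13, beside -0.05 and -0.02 over all tested genes. These comparisons share the control libraries, in which the summed markers of other blood cells listed above were higher than with IL-4 or IL-13, and the part of those cells in the falls described next was not tested.

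**Figure D3:**
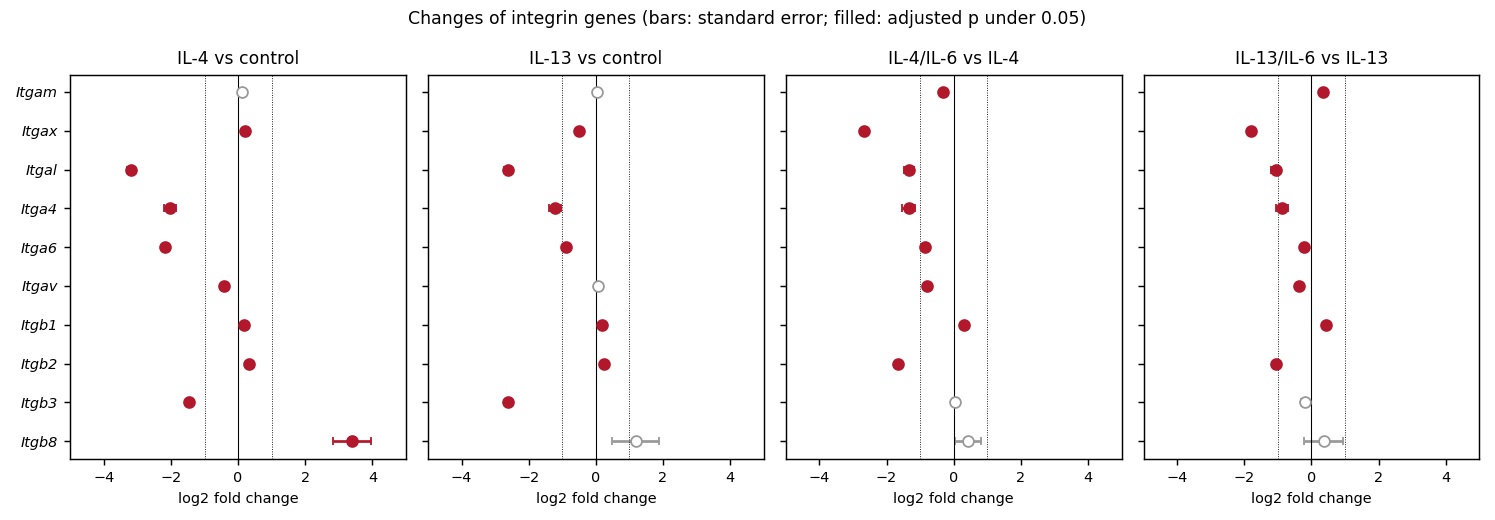
Log2 fold changes of the 10 integrin genes in 4 comparisons, with standard errors as bars, filled points for an adjusted p under 0.05 and dotted lines at a 2-fold change. Itgal, Itga4, Itga6 and Itgb3 lie below 0 with IL-4 and with IL-13, and Itgax lies lowest in both comparisons with IL-6.

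Among the beta2 integrins, Itgal, the alpha chain of LFA-1, responded most to IL-4 and IL-13. Its level was 170.0, 188 and 198 normalized CPM in the control libraries, 20.9, 20.8 and 18.9 with IL-4 and 27.4, 30.4 and 32.9 with IL-13. The groups did not overlap, and every treated library was far below every control library. The fall was 9.15-fold with IL-4 (log2 difference -3.19 ± 0.126 SE, adjusted p = 9.7e-13) and 6.13-fold with IL-13 (log2 difference -2.62 ± 0.122 SE, adjusted p = 1.25e-11). Itgal is also expressed by lymphocytes and granulocytes, whose summed markers were lower in the treated libraries, as given above. Itgax, the CD11c chain that is abundant on dendritic cells and some tissue macrophages, was at 272, 311 and 285 in control, 353, 334 and 310.1 with IL-4 and 191, 204 and 211 with IL-13. The IL-13 libraries were all below the control libraries (log2 difference -0.52 ± 0.0843 SE, adjusted p = 5e-05), whereas the IL-4 and control libraries overlapped at the edge. The IL-4 difference was small (log2 difference 0.20 ± 0.0838 SE, adjusted p = 0.0434), and over the alternative settings its adjusted p ran from 2.57e-05 to 0.135. Without control replicate 1, control replicate 3 or IL-4 replicate 1 it was not called.

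Itgam, the CD11b chain of Mac-1, was at 185, 197 and 197 normalized CPM in control, 213, 204 and 209 with IL-4 and 200.2, 194 and 197 with IL-13. The 3 groups lay within a narrow band, and neither difference passed the test, with intervals of -0.02 to 0.25 for IL-4 (adjusted p = 0.134) and -0.11 to 0.17 for IL-13 (adjusted p = 0.712) on the log2 scale. The IL-4 libraries were all above the control libraries, and the adjusted p of that difference ran from 0.00174 to 0.259 over the alternatives. Itgb2, the partner of these alpha chains, was at 1233, 1273 and 1253 in control, 1578, 1512 and 1572 with IL-4 and 1463, 1492 and 1528 with IL-13. Both treated groups were above control without overlap, by 1.24-fold with IL-4 (log2 difference 0.31 ± 0.0546 SE, adjusted p = 8.69e-05) and 1.19-fold with IL-13 (log2 difference 0.25 ± 0.0546 SE, adjusted p = 0.000693).

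Co-addition of IL-6 was then compared with IL-4 or IL-13 alone. In both settings Itgax fell most, Itgb2, Itgal and Itga4 fell as well, and Itgb1 rose. With IL-4, 7 of the 10 integrin genes were lower (background 18.7%) and 1 was higher (20.7%), and 4 were lower beyond 2-fold (7.47%) and 0 higher (4.34%). With IL-13, 6 were lower (background 13.5%) and 2 higher (12.1%), with 3 (4.19%) and 0 (3.06%) beyond 2-fold. The median log2 difference of the 10 genes was -0.82 with IL-4 and -0.29 with IL-13, beside 0.04 and 0.01 over all tested genes. Upper-quartile scaling lowered the share of higher among all genes called in IL-4/IL-6 versus IL-4 from 52.6% to 39.0%, while 8 integrin genes were called under either scaling.

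Markers of macrophages and of other cells also moved between these groups. The background of their counts is the share of all genes just given for each comparison. Of 7 tested dendritic cell markers, 1 was higher and 1 lower after IL-6 with IL-4 and 1 was higher and 1 lower with IL-13. The marker that fell was Cd24a, from 28.8 to 2.38 normalized CPM with IL-4 (adjusted p = 2.67e-13) and from 31.7 to 3.99 with IL-13 (adjusted p = 2.29e-12), and the marker that rose was Cd209a, from counts of 0, 0 and 3 to 194, 178 and 217 and from 0, 0 and 0 to 36, 34 and 45. Mmp8, a granulocyte collagenase, fell from 23.9 to 10.3 normalized CPM (adjusted p = 3.45e-09) and from 20.9 to 11.1 (adjusted p = 2.3e-07), while Pf4, a platelet chemokine that macrophages also make, rose from 68.7 to 235 (adjusted p = 6.99e-08) and from 75.5 to 390.1 (adjusted p = 4.15e-09). Siglecf, an eosinophil marker, fell from 4.70 to 0.828 (adjusted p = 4.71e-08) and from 4.37 to 1.06 (adjusted p = 6.2e-07). Of the 8 macrophage markers, 3 were higher and 5 lower with IL-4 and 2 were higher and 2 lower with IL-13, among them Fcgr1, which rose in both (2.15-fold and 2.54-fold), and Cd14 (2.18-fold) and Aif1 (2.05-fold), which fell with IL-4. The part of other cells in the changes of the integrin genes after IL-6 was not tested.

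Itgax showed the largest fall after IL-6 of the 10 genes in both settings. Its level was 51.4, 45.9 and 58.7 normalized CPM in IL-4/IL-6 and 54.1, 58.7 and 61.8 in IL-13/IL-6. All 6 libraries with IL-6 lay far below all 9 libraries without it, and the co-treated groups overlapped each other. The fall was 6.39-fold from IL-4 (log2 difference -2.68 ± 0.0909 SE, adjusted p = 3.03e-13) and 3.47-fold from IL-13 (log2 difference -1.80 ± 0.0884 SE, adjusted p = 7.12e-11). Itgb2 reached 499, 471 and 505 in IL-4/IL-6 and 681, 751 and 740.3 in IL-13/IL-6. These levels were below control as well, although IL-4 and IL-13 alone had raised the gene. Relative to the single cytokine Itgb2 fell 3.16-fold with IL-4 (log2 difference -1.66 ± 0.0561 SE, adjusted p = 2.84e-13) and 2.06-fold with IL-13 (log2 difference -1.05 ± 0.0552 SE, adjusted p = 1.61e-10).

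Itgam, whose gene lies next to Itgax, did not follow it. Its level was 165, 185 and 156 normalized CPM in IL-4/IL-6 and 243, 263 and 249 in IL-13/IL-6. With IL-4, all co-treated libraries were below the IL-4 libraries, and with IL-13 all were above the IL-13 libraries. The fall with IL-4 was 1.24-fold (log2 difference -0.31 ± 0.0647 SE, adjusted p = 0.000972) and the rise with IL-13 1.28-fold (log2 difference 0.35 ± 0.0644 SE, adjusted p = 0.000441). Itgal, already low, was at 8.56, 5.66 and 9.79 in IL-4/IL-6 and 13.2, 15.6 and 14.6 in IL-13/IL-6. It fell 2.52-fold from IL-4 (log2 difference -1.33 ± 0.141 SE, adjusted p = 6.13e-07) and 2.09-fold from IL-13 (log2 difference -1.06 ± 0.129 SE, adjusted p = 6.15e-06), again without overlap.

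Itga4 and Itga6, whose chains pair with beta1, fell with IL-4, with IL-13 and after IL-6 in both settings, where Itgb1 rose. Itga4, the alpha chain of VLA-4, was at 205, 198 and 217 normalized CPM in control, 51.1, 55.2 and 46.3 with IL-4 alone, 19.8, 14.1 and 26.6 in IL-4/IL-6, 62.4, 108 and 95.6 with IL-13 and 43.0, 54.9 and 48.0 in IL-13/IL-6. Control was highest and IL-4/IL-6 lowest, and the IL-13 libraries had the largest SD. It fell 4.06-fold with IL-4 (log2 difference -2.02 ± 0.185 SE, adjusted p = 4.61e-08) and 2.33-fold with IL-13 (log2 difference -1.22 ± 0.179 SE, adjusted p = 1.68e-05). IL-6 lowered it further, by 2.52-fold in the presence of IL-4 (log2 difference -1.34 ± 0.196 SE, adjusted p = 2.76e-05) and by 1.82-fold in the presence of IL-13 (log2 difference -0.87 ± 0.183 SE, adjusted p = 0.00166). The gene overlaps Cerkl on the other strand, which held 277 counts over all libraries beside 22799 for Itga4.

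Itga6, the alpha chain of a laminin receptor, was at 426, 392 and 395 normalized CPM in control, 88.9, 89.3 and 88.4 with IL-4 and 194, 235 and 229.7 with IL-13. Both treated groups were below control, and IL-4 was well below IL-13. The falls were 4.55-fold (log2 difference -2.19 ± 0.0789 SE, adjusted p = 3.36e-13) and 1.84-fold (log2 difference -0.88 ± 0.0756 SE, adjusted p = 2.79e-08). Alpha6 is also a chain of platelets, whose marker Ppbp was high only in the control libraries among these groups. With IL-6 the level was 51.1, 44.7 and 52.4 in IL-4/IL-6, a 1.80-fold fall (log2 difference -0.85 ± 0.0791 SE, adjusted p = 1.3e-07), and 185, 195 and 184 in IL-13/IL-6, where the libraries overlapped those of IL-13. The IL-13/IL-6 difference was -0.22 ± 0.0755 SE on the log2 scale (adjusted p = 0.0359), its adjusted p ran from 0.000155 to 0.136 over the alternatives, and it was not called without IL-13 replicate 2 or 3 or without IL-13/IL-6 replicate 1 or 3.

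Itgb1, the common beta chain, rose in each of the 4 comparisons. It was at 677, 691 and 681 normalized CPM in control, 776, 757 and 784 with IL-4, 739, 817 and 779.9 with IL-13, 961, 947 and 981 in IL-4/IL-6 and 1068, 1063 and 1029 in IL-13/IL-6. The libraries with IL-6 were all above those without it, and the IL-4 and IL-13 libraries overlapped. The changes were small in size: 0.18 ± 0.0521 SE with IL-4 (adjusted p = 0.00649), 0.19 ± 0.0521 with IL-13 (adjusted p = 0.00499), 0.32 ± 0.0521 for IL-6 with IL-4 (adjusted p = 8.88e-05) and 0.44 ± 0.0521 for IL-6 with IL-13 (adjusted p = 4.96e-06), as log2 differences. Over both steps the rise from control was 1.41-fold in IL-4/IL-6 (adjusted p = 1.98e-07) and 1.54-fold in IL-13/IL-6 (adjusted p = 1.46e-08).

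The alphaV group differed between IL-4 and IL-13, with Itgav lower and Itgb3 and Itgb8 higher in IL-4. Itgax, Itgal, Itga4 and Itga6 differed between these groups as well. Itgav was at 173, 156 and 169 normalized CPM in control, 125, 127 and 122 with IL-4, 157, 191 and 174 with IL-13, 75.6, 67.0 and 72.0 in IL-4/IL-6 and 134, 139.7 and 133 in IL-13/IL-6. IL-4/IL-6 was lowest, and IL-13 overlapped control. Itgav fell with IL-4 (log2 difference -0.42 ± 0.0725 SE, adjusted p = 8.17e-05), its interval with IL-13 was -0.09 to 0.22 (adjusted p = 0.457), and IL-6 lowered it 1.74-fold with IL-4 (adjusted p = 1.13e-07) and 1.28-fold with IL-13 (adjusted p = 0.00107). Itgb3, the beta chain of the vitronectin receptor, was at 158, 144 and 136 in control, 55.2, 51.5 and 52.4 with IL-4, 19.8, 25.1 and 26.8 with IL-13, 56.4, 49.1 and 59.1 in IL-4/IL-6 and 20.0, 21.6 and 20.7 in IL-13/IL-6. Here IL-13 was the lower group, and the libraries with IL-6 overlapped those without. Itgb3 fell 2.76-fold with IL-4 (log2 difference -1.46 ± 0.0969 SE, adjusted p = 6.94e-10) and 6.12-fold with IL-13 (log2 difference -2.61 ± 0.103 SE, adjusted p = 1.61e-12). The interval of the IL-6 difference was -0.16 to 0.25 with IL-4 (adjusted p = 0.736) and -0.43 to 0.02 with IL-13 (adjusted p = 0.186). Beta3 is also the beta chain of the platelet fibrinogen receptor. Its platelet alpha chain Itga2b was at 122, 109.9 and 110.0 in control and fell to 1.47 with IL-4 (adjusted p = 3.34e-14) and 1.72 with IL-13 (adjusted p = 6.47e-14), and the part of platelet or megakaryocyte RNA in the fall of Itgb3 was not tested.

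Itgb8, which forms the alphaVbeta8 receptor that activates latent TGF-beta, was scarce in every group. Its counts were 2, 3 and 7 in control, 48, 29 and 52 with IL-4 alone, 37, 70 and 56 in IL-4/IL-6, 8, 14 and 6 with IL-13 and 8, 23 and 4 in IL-13/IL-6. The 6 libraries with IL-4 held more than any other library, and the IL-13 libraries overlapped control. The rise with IL-4 was 3.38 ± 0.562 SE on the log2 scale (adjusted p = 4.94e-05), to 2.34 ± 0.648 normalized CPM. For IL-13 the interval was -0.31 to 2.67 (adjusted p = 0.161), and for IL-6 it was -0.38 to 1.23 with IL-4 (adjusted p = 0.411) and -0.86 to 1.58 with IL-13 (adjusted p = 0.715). Neither IL-6 difference passed the test, and the intervals are wide. A count of 3 corresponds to 0.159 to 0.176 CPM in these libraries.

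Whether IL-6 acted alike on top of IL-4 and of IL-13 was tested as the difference between its log2 effects. For 5 of the 10 genes the effect was lower with IL-4 and for 0 higher (background 4.42% and 3.22%), and 0 and 0 did so beyond 2-fold (background 1.08% and 0.796%). The fall of Itgax was deeper with IL-4 by -0.88 ± 0.122 SE (adjusted p = 0.000157), and that of Itgb2 by -0.61 ± 0.0773 (adjusted p = 5.54e-05). Itga6 (-0.62 ± 0.109, adjusted p = 0.00126) and Itgav (-0.44 ± 0.103, adjusted p = 0.0118) also fell more with IL-4. For Itgam the difference of -0.66 ± 0.0913 (adjusted p = 0.000143) separated a fall from a rise. Itgax started from a higher level in IL-4 than in IL-13, and it ended at overlapping levels in both co-treated groups (log2 difference -0.16 ± 0.0888 SE, adjusted p = 0.183). The other genes did not pass the test, with intervals of -0.68 to 0.13 for Itgal, -1.03 to 0.10 for Itga4, -0.27 to 0.04 for Itgb1, -0.05 to 0.56 for Itgb3 and -1.50 to 1.63 for Itgb8. Over the alternatives the adjusted p ran from 0.00355 to 0.604 for Itga4, which passed without a filter on low counts, and from 0.0171 to 0.704 for Itgb3, which passed with limma-voom.

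**Figure D4:**
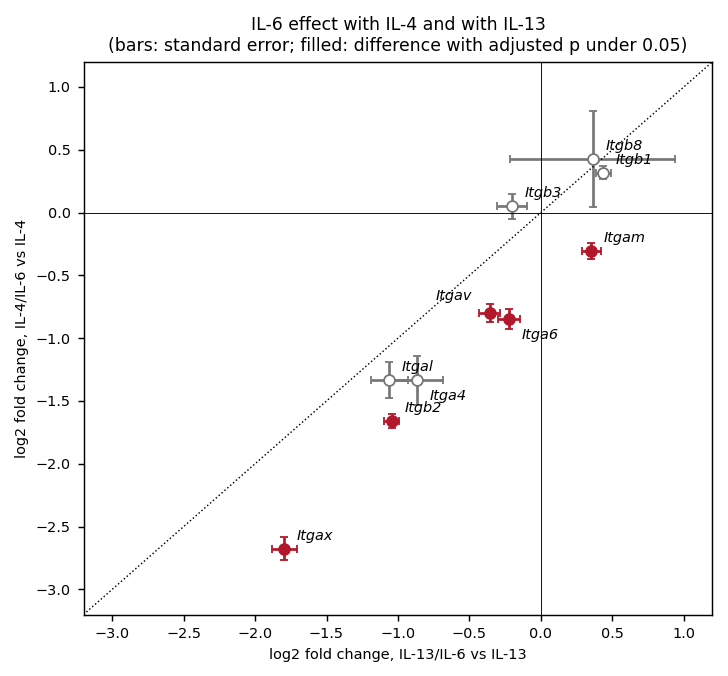
Log2 fold change of the 10 integrin genes after co-addition of IL-6, with IL-13 on the x axis and with IL-4 on the y axis, with standard errors as bars, a dotted line of equal change and filled points where the difference had an adjusted p under 0.05. The filled points Itgax, Itgb2, Itga6, Itgav and Itgam lie below the line, and Itgam lies in the quadrant of a rise with IL-13 and a fall with IL-4.

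The conditions with IL-4 and with IL-13, which differ in dose as well as in cytokine, were also compared with each other. Without IL-6, 3 of the 10 genes were higher in IL-4 than in IL-13 (background 5.16%) and 4 lower (7.61%), and 2 (1.05%) and 1 (1.06%) differed beyond 2-fold. Itgb8 (4.60-fold, adjusted p = 0.00506), Itgb3 (log2 difference 1.15 ± 0.102 SE, adjusted p = 5.27e-07) and Itgax (log2 difference 0.72 ± 0.0844 SE, adjusted p = 1.32e-05) were higher in IL-4. Itga6 (log2 difference -1.31 ± 0.0774 SE, adjusted p = 8.37e-09), Itga4 (log2 difference -0.80 ± 0.183 SE, adjusted p = 0.00682), Itgal (log2 difference -0.58 ± 0.125 SE, adjusted p = 0.0046) and Itgav (log2 difference -0.48 ± 0.0725 SE, adjusted p = 0.000188) were lower. The Itga4 difference had an adjusted p of 0.0503 without IL-13 replicate 2, in a range from 7.37e-16 to 0.0503 over the alternatives. Between the co-treated groups, 2 genes had the higher level in IL-4/IL-6 (background 15.8%) and 6 lower (15.5%), with 2 (2.23%) and 2 (3.94%) beyond 2-fold. Those beyond 2-fold were Itgb8 (2.26) and Itgb3 (1.40), higher, and Itga6 (-1.93) and Itga4 (-1.27), lower, as log2 differences.

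Against control, all 10 genes differed in IL-4/IL-6, with 2 higher (background 35.4%) and 8 lower (37.5%), and 1 (13.1%) and 7 (19.9%) beyond 2-fold. In IL-13/IL-6, 2 were higher (background 31.9%) and 7 lower (32.1%), with 0 (9.13%) and 5 (15.3%) beyond 2-fold. The largest fall was that of Itgal, at -4.53 ± 0.140 SE in IL-4/IL-6 and -3.68 ± 0.131 in IL-13/IL-6. Itgam was lower than control in IL-4/IL-6 (log2 difference -0.20 ± 0.0647 SE, adjusted p = 0.0122, range of adjusted p over the alternatives 3.55e-05 to 0.147, not called without IL-4/IL-6 replicate 1 or 3) and higher than control in IL-13/IL-6 (log2 difference 0.38 ± 0.0645 SE, adjusted p = 5.95e-05). Itgb8 was 1.54 ± 0.679 above control in IL-13/IL-6 and did not pass (adjusted p = 0.0561), over a range of 0.00485 to 0.466 in the alternatives.

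As Itgb2 fell and Itgb1 rose, the order of the beta chains per length was exchanged by IL-6. The ratio of Itgb1 to Itgb2 in FPKM was 0.411, 0.406 and 0.407 in the control libraries, 0.368, 0.374 and 0.373 with IL-4 and 0.378, 0.410 and 0.382 with IL-13. It was 1.44, 1.50 and 1.45 in IL-4/IL-6 and 1.17, 1.06 and 1.04 in IL-13/IL-6. Itgb1 thus exceeded Itgb2 in 6 of 6 libraries with IL-6 and in 0 of 9 libraries without it, though in IL-13/IL-6 the margin was small. Of the summed FPKM of the 10 genes, Itgb2 held 60.1% with IL-4 against 34.6% after co-addition of IL-6, and Itgb1 22.4% and 50.7%.

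The alpha partners of beta2 changed in composition as well. Itgam made up 30.3% ± 0.658 (SD, n = 3) of the summed FPKM of Itgal, Itgam and Itgax in control, 36.5% ± 1.43 with IL-4 and 45.7% ± 1.62 with IL-13, and 73.5% ± 4.29 in IL-4/IL-6 and 77.8% ± 0.988 in IL-13/IL-6. Itgax made up 47.5% ± 1.36 in control, 60.8% ± 1.39 with IL-4, 49.0% ± 1.28 with IL-13, 23.8% ± 3.53 in IL-4/IL-6 and 18.8% ± 0.961 in IL-13/IL-6. The share of Itgal was 22.2% ± 1.03 in control and at most 5.35% ± 0.353 in the other groups. The main beta2 alpha transcript was therefore Itgax in control and IL-4, Itgam in both groups with IL-6, and about equally Itgam and Itgax in IL-13. The sum of the alpha chains relative to Itgb2 was 0.309 ± 0.0117 in control, 0.224 ± 0.0102 with IL-4, 0.175 ± 0.000521 with IL-13, 0.284 ± 0.0197 in IL-4/IL-6 and 0.272 ± 0.00524 in IL-13/IL-6. The sum of these alpha chains was below Itgb2 in FPKM in every library, and these ratios are descriptions of transcripts without a test.

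**Figure D5:**
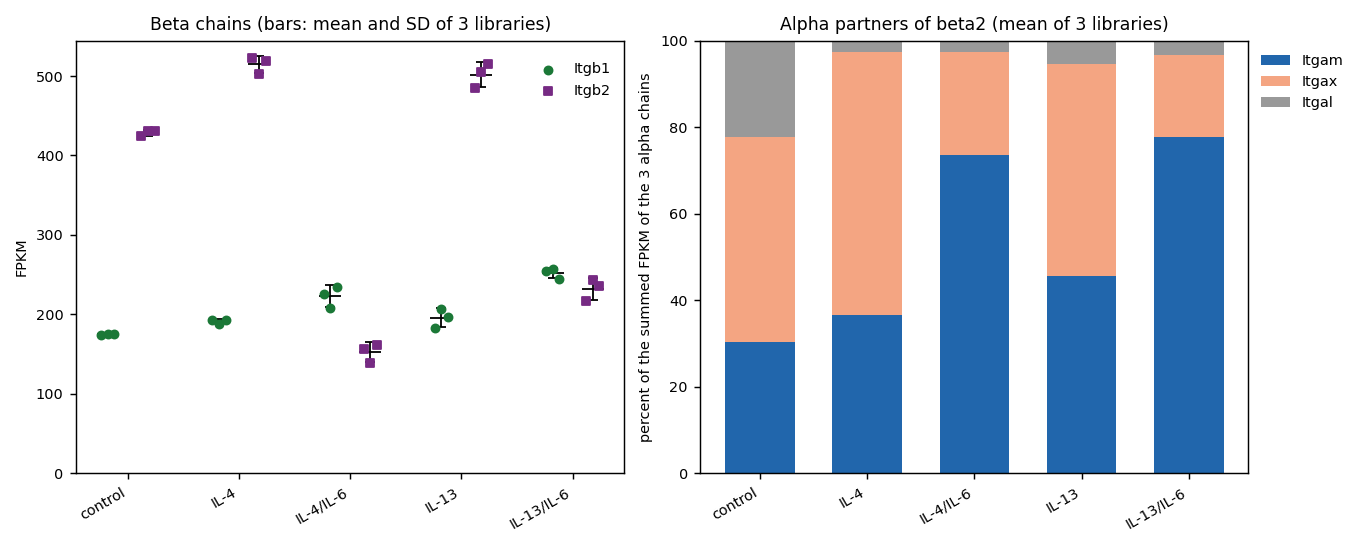
Left, FPKM of Itgb1 (circles) and Itgb2 (squares) in each library of the 5 groups, with lines for the mean and SD of 3 libraries. Right, mean percent of the summed FPKM of Itgam, Itgax and Itgal held by each. Itgb1 lies above Itgb2 in IL-4/IL-6 and IL-13/IL-6, where Itgam holds 73.5% and 77.8% of the alpha sum.

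Of 17 other integrin chains, 12 were expressed enough to be tested. With IL-4, 1 was higher (background 32.1%) and 8 lower (35.9%) than control, and with IL-13 the counts were 3 (29%) and 9 (31.1%). After co-addition of IL-6, 2 were higher (background 20.7%) and 4 lower (18.7%) with IL-4, and 2 (12.1%) and 4 (13.5%) with IL-13. The chains that rose with IL-6 were alpha partners of beta1. Itga1, a collagen receptor chain, was at 0.214, 0.387 and 0.218 normalized CPM with IL-4 and 8.85, 7.31 and 10.1 in IL-4/IL-6 (log2 difference 4.97 ± 0.235 SE, adjusted p = 2.09e-11), and at 0.321, 0.338 and 0.361 with IL-13 and 9.20, 9.44 and 10.8 in IL-13/IL-6 (log2 difference 4.82 ± 0.223 SE, adjusted p = 3.27e-11). The control libraries held 6.04, 5.32 and 4.99, which was more than with either single cytokine and less than in any library with IL-6. Itga9, which binds tenascin and other ligands, went from 1.94 to 18.9 (log2 difference 3.28 ± 0.216 SE, adjusted p = 1.52e-09) and from 2.38 to 22.3 (log2 difference 3.23 ± 0.208 SE, adjusted p = 2.37e-09). Both remained scarce beside Itgb1.

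Itgb5, another partner of alphaV, was at 404 ± 1.82 normalized CPM in control and fell with IL-4 to 209.6 ± 5.42 (adjusted p = 9.28e-10), with IL-13 to 257 ± 7.94 (adjusted p = 1.36e-07), and further in IL-4/IL-6 to 112 ± 9.46 (adjusted p = 4.7e-09) and in IL-13/IL-6 to 208 ± 10.1 (adjusted p = 0.00159). Its level in FPKM was above those of Itgb3 and Itgb8 in every group, for example 63.0 beside 9.09 and 0.213 with IL-4. Itga5, the fibronectin receptor chain, fell after IL-6 with IL-4 (log2 difference -0.71 ± 0.0798 SE, adjusted p = 1.29e-06) and with IL-13 (log2 difference -0.34 ± 0.0790 SE, adjusted p = 0.00341). Itgb7, a partner of alpha4, fell likewise (log2 difference -0.53 ± 0.0761 SE, adjusted p = 2.23e-05 with IL-4, and log2 difference -0.85 ± 0.0756 SE, adjusted p = 1.3e-07 with IL-13). Itga8 was low but higher with IL-13, at 4.02, 6.36 and 5.36 normalized CPM beside 0.573, 0.887 and 0.561 in control (adjusted p = 3.46e-06). After IL-6 it fell to 2.17 with IL-13 (adjusted p = 0.00658), and with IL-4 from 1.29 to 0.326 (adjusted p = 0.00493). Itgb2l, a relative of Itgb2, had counts of 95, 93 and 80 in the control libraries and 0 in all 12 cytokine-treated libraries, where a count of 0 allows up to 3 counts. Itgad, Itgae, Itga2 and Itga2b were also lower with IL-4 and with IL-13, as were the summed markers of other blood cells.

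Genes that act with these integrins were counted by list. Among 11 tested activators of integrins, such as talin and Rap1, 4 were higher and 4 lower with IL-4, 4 were higher and 5 lower with IL-13, and 3 were higher and 3 lower and 2 were higher and 1 lower after IL-6 with IL-4 and with IL-13. Rap1b, a GTPase that promotes integrin activation, rose after IL-6 with IL-4 (493 to 698 normalized CPM, adjusted p = 1.13e-05) and with IL-13 (571 to 918, adjusted p = 5.11e-07), and Rassf5, a Rap1 effector, fell in both (adjusted p = 1.7e-06 and adjusted p = 0.00917). Tln1, a talin, fell after IL-6 with IL-4 (log2 difference -0.76 ± 0.118 SE, adjusted p = 5.29e-05). With IL-13 the Tln1 difference did not pass (log2 difference -0.29 ± 0.117 SE, adjusted p = 0.0807). Among 4 genes that restrain integrins, 1 was higher and 2 lower after IL-6 with IL-4 and 1 was higher and 1 lower with IL-13. Itgb1bp1, which binds the beta1 tail, went from 20.2, 20.3 and 22.9 to 83.1, 97.6 and 71.4 with IL-4 (log2 difference 1.99 ± 0.115 SE, adjusted p = 2.7e-10) and from 18.4 to 28.6 with IL-13 (log2 difference 0.64 ± 0.117 SE, adjusted p = 0.000498), a larger rise with IL-4 (difference 1.36 ± 0.163 SE, adjusted p = 3.63e-05). Flna, filamin A, which competes with talin for beta chain tails, fell from 1662 to 829 with IL-4 (2.01-fold, adjusted p = 3.36e-06) and from 1949 to 1398 with IL-13 (1.39-fold, adjusted p = 0.00664). Of 6 kinases near the receptor, 0 were higher and 3 lower after IL-6 with IL-4 and 0 were higher and 1 lower with IL-13. Of 10 tested genes of the adhesion complex, 2 were higher and 3 lower after IL-6 with IL-4 and 1 was higher and 2 lower with IL-13. The background of each comparison is the share of all genes given above.

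Among the ligands, Fn1, Spp1, Icam1 and Cdh1 rose after IL-6 in both settings, and Mfge8, Lama3, Edil3 and Icam2 fell. Of 9 tested soluble and matrix ligands, 2 were higher and 4 lower after IL-6 with IL-4 and 3 were higher and 3 lower with IL-13. Fn1, fibronectin, a ligand of alpha4beta1 and of alphaV integrins, was at 44.6, 51.4 and 55.5 normalized CPM in control, 522, 542 and 441 with IL-4, 202, 288 and 296 with IL-13, 2236, 1446 and 2559 in IL-4/IL-6 and 1234, 1509.8 and 1294 in IL-13/IL-6. No libraries of the co-treated groups overlapped those of the single cytokines (log2 difference 2.05 ± 0.177 SE, adjusted p = 4.71e-08 with IL-4, log2 difference 2.36 ± 0.179 SE, adjusted p = 1.95e-08 with IL-13). Spp1, osteopontin, a ligand of alphaV and alpha4 integrins, rose after IL-6 from 2099.6 to 5599.9 with IL-4 (adjusted p = 9.68e-09) and from 2892 to 12391 with IL-13 (adjusted p = 1.46e-10). Mfge8, which has an RGD motif, fell after IL-6 by 0.84 with IL-4 (adjusted p = 1.89e-08) and by 0.69 with IL-13 (adjusted p = 3.62e-07) on the log2 scale, the laminin chain Lama3 by 0.90 (adjusted p = 0.00112) and 0.50 (adjusted p = 0.0402), and Edil3, another RGD protein, by 0.67 (adjusted p = 0.00417) and 0.50 (adjusted p = 0.032). Thbs1, thrombospondin 1, a product of platelets and macrophages, fell from 341 in control to 1.53 with IL-4 (adjusted p = 4.32e-15) and 2.08 with IL-13 (adjusted p = 1.31e-14). Of 5 tested ligands on cell surfaces, 2 were higher and 1 lower after IL-6 with IL-4 and 2 were higher and 2 lower with IL-13. Icam1, the counter-receptor of LFA-1 and Mac-1, was at 69.0, 75.6 and 72.1 in control, 10.3, 9.96 and 10.6 with IL-4 alone, 37.4, 28.3 and 35.5 in IL-4/IL-6, 19.4, 16.5 and 17.8 with IL-13 and 40.8, 42.0 and 41.3 in IL-13/IL-6. It fell with each single cytokine (adjusted p = 3.04e-13 and adjusted p = 1.45e-11) and rose after IL-6 (adjusted p = 3.71e-10 and adjusted p = 3.25e-08) to levels below control. Icam2, another ligand of LFA-1, fell after IL-6 by 0.94 with IL-4 (adjusted p = 0.00138) and by 1.12 with IL-13 (adjusted p = 0.000396) on the log2 scale. Vcam1, the ligand of alpha4beta1, fell from 40.1 to 0.746 with IL-4 (adjusted p = 2.61e-14) and 0.839 with IL-13 (adjusted p = 5.49e-14), and Cdh1, E-cadherin, rose from 1.32 to 58.3 (adjusted p = 2.66e-16) and 18.4 (adjusted p = 4.26e-14), and after IL-6 it rose further to 121 with IL-4 (adjusted p = 8.18e-10) and 52.6 with IL-13 (adjusted p = 4.13e-11).

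Of 11 tested membrane partners, 5 were higher and 2 lower after IL-6 with IL-4 and 3 were higher and 3 lower with IL-13. The tetraspanin Cd81, which associates with beta1 integrins, rose from 92.2, 93.3 and 87.8 normalized CPM with IL-4 to 514, 648 and 469 in IL-4/IL-6 (log2 difference 2.58 ± 0.100 SE, adjusted p = 1.65e-12), and Cd9, of the same family, fell from 531 to 243 (log2 difference -1.13 ± 0.102 SE, adjusted p = 8.26e-08). With IL-13 the Cd81 rise was smaller (log2 difference 0.87 ± 0.0982 SE, adjusted p = 2.31e-06, difference 1.70 ± 0.137, adjusted p = 6.76e-07). Of 14 tested genes of TGF-beta activation and reception, a process in which alphaVbeta8 takes part, 3 were higher and 8 lower after IL-6 with IL-4 and 3 were higher and 7 lower with IL-13. Tgfbr3, a coreceptor, rose from 0.473 to 14.6 with IL-4 (log2 difference 4.93 ± 0.323 SE, adjusted p = 1.44e-09), and Ltbp3, a binding protein of the latent form, fell from 42.5 to 24.2 (log2 difference -0.81 ± 0.102 SE, adjusted p = 5.01e-06). Tgfb1 itself fell with IL-4 plus IL-6 (log2 difference -0.53 ± 0.0623 SE, adjusted p = 1.98e-06) and with IL-13 plus IL-6 (log2 difference -0.21 ± 0.0620 SE, adjusted p = 0.0181).

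The genes with the most similar pattern over the 15 libraries were found among 8704 genes with a mean of at least 10 normalized CPM, by the Pearson r of log2 levels, which is given as a description because replicates of a group share its condition. For the beta2 group these were Tle1 (0.991), Ptprs (0.990), Rab3d (0.988) for Itgb2, Tifab (0.990), Mmp8 (0.988), Prkcd (0.986) for Itgax, Dazap2 (0.928), Alox5ap (0.862), C1qc (0.844) for Itgam and Stra6l (0.995), Plekhm2 (0.994), Ago4 (0.993) for Itgal. For the beta1 group they were Hsp90b1 (0.986), Rab31 (0.981), Ube2j1 (0.980) for Itgb1, Arhgef6 (0.994), Slc43a2 (0.992), Nbeal2 (0.992) for Itga4 and Abcc3 (0.991), Map3k14 (0.985), Lpar6 (0.984) for Itga6. For the alphaV group they were Rab7b (0.985), Dock8 (0.982), Plekhm3 (0.980) for Itgav, Ttyh2 (0.973), Sdha (0.961), Alas1 (0.950) for Itgb3 and Rpl17-ps5 (0.922), Casp6 (0.907), Cul4a (0.907) for Itgb8. No integrin chain was among the 3 genes nearest to another. The nearest gene of Itgam and of Itgb8 was less similar than that of any other integrin gene.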

How the data were processed

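The 15 BMDM libraries were sequenced by a company, which also processed the reads. The submitters' processing notes name CASAVA, Bowtie2 2.2.3, HISAT2 2.1.0, TopHat2, DESeq2 and the build GRCm38. The counting tool, its strand setting and its annotation are not given in the sources used here, so reads of a gene and of an antisense partner may not have been separated. The deposited matrix holds raw counts per gene for 53465 Ensembl identifiers, made by the authors without normalization, of which 53274 were paired with a symbol. The authors also deposited FPKM values of 26080 genes for each library, which were found on 13342 genes to be the counts divided by a gene length and the library total (relative spread of the implied lengths at most 2.65e-08). For all 10 integrin genes the implied length equals the union of exons in GENCODE vM21.

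Counts were analysed with edgeR 4.0.16 in R 4.3.3: filterByExpr (minimum count 10), TMM factors, 1 quasi-likelihood fit of the 15 libraries without covariates and Benjamini-Hochberg adjustment over 13938 genes in each comparison. A gene was called at an adjusted p under 0.05, and changes beyond 2-fold were counted as well. Intervals of log2 differences cover 95%. FPKM was used only to compare levels between genes and for ratios and shares within a library, and floors of 3 counts cover counting error only. The alternatives were upper-quartile scaling, DESeq2 1.42.0, limma-voom (limma 3.58.1) with quality weights, no filter or a filter of at least 1 CPM in 3 libraries, the replicate number as a block, fits of fewer groups and fits that each omit a library. The script was tested on simulated data. The integrin genes and the gene lists were chosen with earlier results of these data known, and genes named beside the integrins followed a written rule (for each list and comparison the largest rise and fall with a mean of at least 10 normalized CPM in a group, and other integrin chains beyond 2-fold, with the most abundant gene of each marker list, while further genes and comparisons, such as Itga5, Itgb5, Itgb7, Tgfb1, Spp1, Edil3, Icam2, Flt3 and Aif1, were added after their values were seen). A gene named by this rule and the strain of the mice are not reported here. Replicates are biological according to the study, but the labels do not say that they came from separate animals, so p-values may measure only the spread between these samples. Replicates with the same number did not deviate together, so the numbers were not used to pair libraries.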

Additional observations from a re-analysis of the deposited data

Results flagged for a closer look

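For 5 of the 10 integrin genes the effect of IL-6 differed between IL-4 and IL-13 in the edgeR test of the difference of log2 fold changes. The difference, with IL-4 minus with IL-13, was -0.8792 for Itgax, -0.6614 for Itgam, -0.6219 for Itga6, -0.6149 for Itgb2 and -0.4412 for Itgav. In each of the 15 fits that left out a library, 5 integrin genes passed this test. The count was 6 without a filter on low counts, where Itga4 also passed (edgeR adjusted p = 0.00355), and 6 with limma-voom, where Itgb3 also passed (adjusted p = 0.0171). The design has no group with IL-6 alone and uses different doses of IL-4 and IL-13, so cytokine and dose cannot be told apart here.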

How the results depend on the processing

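Of the counts of called integrin genes and the beta2 balances, 422 values under the alternatives stayed within 1.5 times the main count or within 1 SD of the main balance and 5 moved. A balance with a library left out could not move by 1 SD of its group. Those values were therefore bound to be counted among the 422 and say nothing on stability. Without division by length, the sum of Itgal, Itgam and Itgax relative to Itgb2 was 0.533 in control, 0.361 with IL-4, 0.466 in IL-4/IL-6, 0.287 with IL-13 and 0.448 in IL-13/IL-6. Of the log2 differences of single integrin genes, 1949 kept direction and call, 27 gained a call, 17 lost it and 14 changed sign, and none that changed sign had been called. Itgb1 in IL-4 versus IL-13 was 0.0185 with upper-quartile scaling, 0.0072 without a filter and 0.0019 with only the compared groups, and from -0.0406 to 0.0206 when a library was left out. Itgb3 in IL-4/IL-6 versus IL-4 was -0.0387 with upper-quartile scaling and from -0.0259 without IL-4/IL-6 replicate 3 to 0.11 with a library left out. For Itgb8, IL-13/IL-6 versus IL-13 ran from -0.56 without IL-13/IL-6 replicate 2 to 0.80, and the difference between the IL-6 effects was -0.20 with limma-voom and from -0.39 to 0.97 with a library left out. When a library was left out, calls were gained by Itgam in IL-4 versus control (IL-4 replicate 2, IL-4/IL-6 replicate 1 or 2, IL-13 replicate 1, IL-13/IL-6 replicate 1 or 3), Itgax in IL-4/IL-6 versus IL-13/IL-6 (IL-4/IL-6 replicate 3), Itgb1 in that comparison (IL-4/IL-6 replicate 3, IL-13 replicate 1 or 2), Itgb3 in IL-13/IL-6 versus IL-13 (IL-13 replicate 1) and Itgb8 in IL-13/IL-6 versus control (control replicate 3, IL-4/IL-6 replicate 1 or 2, IL-13/IL-6 replicate 1 or 3). The causes were not tested.

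With the replicate number as a block, Itgax in IL-4 versus control (log2 0.20, adjusted p = 0.0532 in edgeR) and Itga6 in IL-13/IL-6 versus IL-13 (-0.22, adjusted p = 0.0596) lost their calls and no other call changed. Same-number libraries correlated at -0.276 to 0.163 in their deviations, above 0.1 in 3 of 30 pairs, and other pairs at -0.349 to 0.393. No shared shift of same-number libraries was seen. With 3 replicates in a group, this cannot show whether same-number samples shared an animal or a culture.

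Over all genes, limma-voom called 5214 in IL-4 versus IL-13, 5352 in IL-13/IL-6 versus IL-13 and 2722 for the difference between IL-6 effects, beside 1779, 3563 and 1065 in the main fit, and the fit of only the compared groups called 2900 in IL-4/IL-6 versus IL-13/IL-6 beside 4368. Upper-quartile scaling and no filter lowered the share of higher among calls for the difference between IL-6 effects from 42.2% to 31.7% and 31.5%. The median log2 difference of all genes in IL-4/IL-6 versus control was -0.05 in the main fit and -0.14 with DESeq2 over 25254 genes. Itgb8 had the fewest counts of these genes, from 2 to 70 a library, and how far counting error and replicate spread each limit it was not tested.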
